A study of Homo sapiens with 8 samples.

Results

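The genes described here are the subunits of AMP-activated protein kinase (AMPK), its upstream kinase STK11, and SESN2, DDIT4 and TSC1, which restrain mTORC1. They were chosen by name, as 10 of the 61806 genes in the deposited table, and every one had its own row. mRNA was measured in wild-type N/TERT-1 cells, an immortalized line of human epidermal keratinocytes grown in serum-free medium. In 4 libraries the cells had received ethanol, the solvent, and in the other 4 they had received O/A for 4 hours. O/A joins oligomycin, an inhibitor of the mitochondrial ATP synthase, with antimycin A, an inhibitor of complex III. The replicates of each condition came from independent experiments on this single line, so the spread between libraries holds experimental variation and no variation between donors.

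AMPK is built from a catalytic alpha subunit, a beta subunit that holds the complex together, and a gamma subunit that binds AMP, ADP and ATP. When ATP falls, the kinase LKB1, encoded by STK11, can phosphorylate and switch on the alpha subunit. AMPK in turn restrains mTORC1, the kinase complex that drives growth, through TSC2 and RPTOR. SESN2 (sestrin 2) senses leucine and acts on mTORC1 through GATOR2, whereas DDIT4 (REDD1) acts through the TSC complex, of which TSC1 is the stabilizing subunit. These are mostly controls on proteins, whereas the measurements below are of mRNA.

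Library totals ran from 17210404 to 20999927 counts with ethanol and from 17689760 to 19263046 with O/A. All 7 markers of basal keratinocytes looked at were present, and their summed level ran from 3273 to 3520 FPKM with ethanol and from 2972 to 3121 with O/A. FPKM is the count of a gene scaled by its exon length and by the library total. The 5 suprabasal markers summed to 19.5 to 21.3 FPKM with ethanol and 20.7 to 22.0 with O/A, nearly all of it from KRT10 and IVL, while KRT1 and LORICRIN were at 0 in every library. Fibroblast, melanocyte, and leukocyte and endothelial markers summed to at most 2.95, 0.66 and 0.45 FPKM in any library. As with all bulk samples, fewer cells with a transcript and less of it per cell cannot be told apart.

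O/A raised SESN2 5.38-fold, raised DDIT4 1.42-fold and TSC1 1.22-fold, and lowered PRKAG2, a gamma subunit gene, to 0.819 of its level in ethanol. A gene was called higher or lower when its adjusted p-value in edgeR's quasi-likelihood test was at most 0.05 and its absolute log2 fold change was above 0.25. Of the 10 genes, 9 had enough counts to be tested, 3 were called higher and 1 was called lower. Over all 14893 genes tested, 15.8% were called higher and 18.9% were called lower, so a share of 33.3% of these 9 genes lay above the background and one of 11.1% below it, on few genes. An adjusted p-value of at most 0.05, whatever the fold change, was reached by 6 of the 9 genes and by 53.7% of all genes. The libraries of both conditions did not overlap, as TMM-scaled CPM (counts divided by a library size that the bulk of the genes sets), for 6 of the 9 genes and for 47.6% of all genes. The plot of FPKM by library shows that SESN2 passed PRKAA1 and PRKAB2 in level, while the other genes kept their order.

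**Figure D1:**
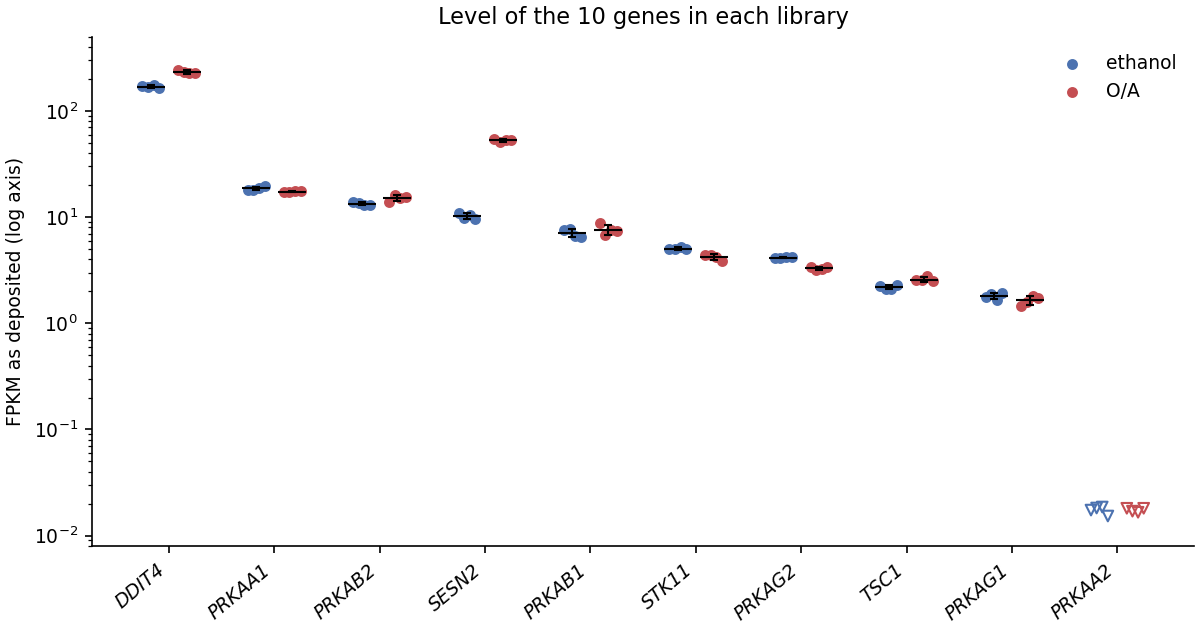
FPKM as deposited (log axis) of each of the 10 genes in the 4 ethanol (blue) and 4 O/A (red) libraries, ordered by the ethanol mean. Points are libraries and bars are the mean and SD. For PRKAA2, which had 0 or 1 count per library, open triangles mark the FPKM that 3 counts would give. SESN2 rose from 10.2 to 53.1 FPKM.

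SESN2 binds GATOR2 and is induced by several kinds of stress. It lies on the plus strand of chromosome 1 (GRCh38, 28259518 to 28282491). The ethanol libraries had 11.0, 9.75, 10.4 and 9.61 FPKM and the O/A libraries had 55.0, 50.7, 53.6 and 52.9 FPKM. The lowest O/A library was therefore far above the highest ethanol library. Its log2 fold change was 2.43 (SE 0.0389, 95% confidence interval 2.35 to 2.50, edgeR adjusted p = 9.39e-44). This placed it at rank 52 from the top among the 14893 genes tested.

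The other sestrin genes did not all move with SESN2. SESN3 rose, with a log2 fold change of 0.76 (SE 0.0728, edgeR adjusted p = 3.60e-12), from 1.40 ± 0.204 to 2.30 ± 0.0606 FPKM (SD, n = 4 libraries). SESN1 fell, with a log2 fold change of -0.46 (SE 0.0518, edgeR adjusted p = 8.03e-11), from 5.73 ± 0.176 to 4.03 ± 0.295 FPKM (SD, n = 4). The summed sestrin level went from 17.3 ± 0.852 FPKM with ethanol to 59.4 ± 1.99 with O/A (SD, n = 4). SESN2 made up 58.8% ± 1.46 of it in ethanol and 89.3% ± 0.446 in O/A (SD, n = 4). Even in ethanol, SESN2 was the main sestrin transcript on this scale.

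DDIT4 is the gene of REDD1, an inhibitor of mTORC1 that is made in hypoxia, energy stress and ER stress. It lies on the plus strand of chromosome 10 (72273919 to 72276036). The ethanol libraries had 171, 167, 175 and 164 FPKM and the O/A libraries had 243, 234, 226 and 227 FPKM. The conditions did not overlap. The log2 fold change was 0.50 (SE 0.0269, 95% confidence interval 0.45 to 0.56, edgeR adjusted p = 3.27e-22). DDIT4 had the highest level of the 10 genes in both conditions, and its step from 169 to 233 FPKM was larger in FPKM, although smaller as a fold, than that of SESN2. DDIT4L, its paralog, had 0 counts in all 8 libraries.

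TSC1 (hamartin) keeps TSC2 stable in the complex that switches off RHEB. It lies on the minus strand of chromosome 9 (132891348 to 132946874). The ethanol libraries had 2.24, 2.10, 2.10 and 2.28 FPKM, all below the O/A libraries, which had 2.54, 2.56, 2.76 and 2.48 FPKM. Its log2 fold change was 0.29 (SE 0.0475, 95% confidence interval 0.20 to 0.39, edgeR adjusted p = 7.56e-07), close to the threshold of 0.25. With total counts in place of TMM scaling it was 0.245, and on log2(FPKM + 0.1) it was 0.236, both short of the threshold with an adjusted p of at most 0.007 (edgeR and limma). On log2(FPKM + 1) it was 0.17.

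TSC1 acts in a complex with TSC2 and TBC1D7. TBC1D7, the other accessory subunit, rose with a log2 fold change of 0.27 (SE 0.0639, edgeR adjusted p = 2.74e-04), which was also close to the threshold of 0.25. TSC2, which carries the GTPase-activating domain, had a log2 fold change of 0.04 (95% confidence interval -0.05 to 0.13, edgeR adjusted p = 0.492). Within each library the count ratio of TSC1 over TSC2, which needs no scaling between libraries, had a mean log2 value of -0.32 in ethanol and -0.07 in O/A. The difference of 0.25 had a p of 0.0286 in a two-sided exact permutation test, the smallest that 4 libraries against 4 allow, and a p of 0.0857 after adjustment over the 3 ratios tested. With larger p-values for the other ratios, a ratio at that smallest p could not pass the correction, whatever its shift. The adjusted p therefore does not decide whether the ratio moved. In every ethanol library the log2 ratio was at or below -0.2395, and in every O/A library it was at or above -0.1918.

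**Figure D2:**
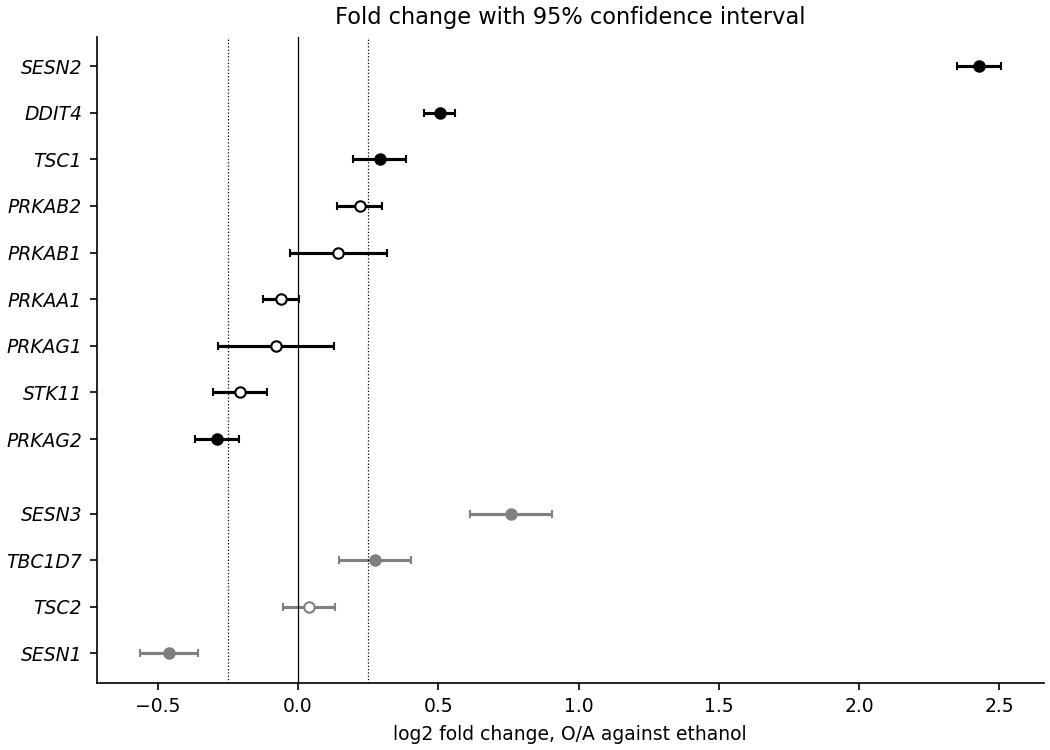
log2 fold change of O/A against ethanol with its 95% confidence interval (computed from the edgeR fit). The 9 members tested are in black and the paralogs or partners SESN1, SESN3, TSC2 and TBC1D7 in grey; filled points were called and dotted lines mark a log2 fold change of -0.25 and 0.25. SESN2, at 2.43, lies apart from all others, which lie between -0.46 and 0.76.

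SESN2 and DDIT4, the members with the largest fold increases, are shown with their promoters. The sequences are RefSeq windows of 300 bases (GRCh38.p14) around the start, mostly upstream of it, read in the direction of the gene at chr1:28259268-28259567 for SESN2 and chr10:72273674-72273973 for DDIT4. Capitals mark ATTGG, the reverse complement of the CCAAT box, and ACGTG, a form of the core of the site that HIF-1 binds. Other forms of that core were not looked for or marked.
SESN2: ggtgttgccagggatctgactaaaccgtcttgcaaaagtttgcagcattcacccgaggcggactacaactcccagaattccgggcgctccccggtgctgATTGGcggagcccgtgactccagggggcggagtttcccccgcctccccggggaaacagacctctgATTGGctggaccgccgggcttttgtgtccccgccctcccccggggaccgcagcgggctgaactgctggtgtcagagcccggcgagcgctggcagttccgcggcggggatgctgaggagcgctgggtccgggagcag
DDIT4: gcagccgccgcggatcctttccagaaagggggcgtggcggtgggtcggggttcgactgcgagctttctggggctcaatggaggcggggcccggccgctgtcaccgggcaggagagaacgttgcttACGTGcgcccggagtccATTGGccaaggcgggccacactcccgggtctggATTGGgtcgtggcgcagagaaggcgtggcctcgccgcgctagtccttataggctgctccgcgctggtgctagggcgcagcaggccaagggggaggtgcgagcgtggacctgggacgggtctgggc

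Positions are counted from the RefSeq start, which is 28259518 for SESN2, as in the gene's coordinates above, and 72273924 for DDIT4, slightly downstream of the start of its coordinates above. ATTGG began 151 and 86 bases before the RefSeq start of SESN2 and 108 and 75 bases before that of DDIT4, and ACGTG began 125 bases before that of DDIT4. CCAAT was found, on either strand, in 34.6% of the 35116 windows of the RefSeq table and ACGTG in 21.4%. Of the 10 genes, all of which had at least 1 window and together had 14, 5 held CCAAT and 3 held ACGTG. TGATGNAAT, a site of ATF4 with C/EBP factors, was in 0.991% of all windows and CACGTG, the E-box, in 7.26%, and neither was in a window of the 10 genes. CCAAT and ACGTG were looked for after the sequences had been seen, and a match or its absence in these letters says nothing of binding.

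SESN2 and DDIT4 are known targets of several stress pathways, whose other target genes are given here for comparison. ATF4 and the 5 ATF4 targets looked at were all called higher, with log2 fold changes from 1.54 for ATF4 to 5.22 for ASNS and a median of 3.06. Of 4 glucocorticoid receptor targets tested 3 were called higher, led by TSC22D3 at 1.33, and FKBP5 had -0.10. Of 5 NRF2 targets 3 were called higher, from 0.18 for GCLM, which was not called, to 0.96 for TXNRD1. Among 6 p53 targets 2 were called higher, from -0.02 for TP53INP1, not called, to 1.00 for BBC3. The 6 HIF-1 targets divided, with VEGFA higher at 2.74, 3 genes lower down to -1.59 for EGLN3, and a median of -0.61. Over all genes tested the median was -0.0004, with 15.8% called higher and 18.9% lower, and each of these lists holds few genes. They were also chosen with earlier results of these data known. The part of any of these pathways in the change of SESN2 or DDIT4 was not tested.

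Among the AMPK subunits, PRKAG2 was the only one called. It encodes gamma 2, a nucleotide-binding subunit, and lies on the minus strand of chromosome 7 (151556124 to 151877125). The ethanol libraries had 4.13, 4.08, 4.18 and 4.21 FPKM and the O/A libraries had 3.39, 3.20, 3.23 and 3.37 FPKM, with no overlap. The log2 fold change was -0.29 (SE 0.0394, 95% confidence interval -0.37 to -0.21, edgeR adjusted p = 1.42e-08). The counts do not separate its transcripts, which start at several places, 5 of them in the RefSeq table.

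PRKAG1, on the minus strand of chromosome 12 (49002274 to 49018807), encodes gamma 1 and had 1.75, 1.87, 1.66 and 1.91 FPKM in ethanol and 1.47, 1.59, 1.82 and 1.72 FPKM in O/A. The conditions overlapped, and the log2 fold change was -0.08 (95% confidence interval -0.29 to 0.13, edgeR adjusted p = 0.544). Its level is uncertain, because 97.3% of the bases of its canonical transcript also lie in exons of another protein-coding gene on the same strand, ENSG00000288710. HTSeq leaves out reads that fall on more than 1 gene unless told otherwise, and the setting used is not given in the sources used here. PRKAG1 held 557 counts over the ethanol libraries and 506 over the O/A libraries, and ENSG00000288710 held 21 and 20. The log2 count ratio of PRKAG2 over PRKAG1 fell short of a difference, at 3.19 ± 0.0958 in ethanol and 2.98 ± 0.157 in O/A (SD, n = 4, two-sided exact permutation test, p = 0.0857, adjusted p = 0.129 over 3 ratios). PRKAG3, the remaining gamma gene, had 0 counts in all 8 libraries.

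For the catalytic subunit, nearly all of the transcript came from PRKAA1, which encodes alpha 1. It lies on the minus strand of chromosome 5 (40759389 to 40798374) and had 18.2, 18.1, 19.0 and 19.5 FPKM in ethanol and 17.1, 17.3, 17.5 and 17.5 FPKM in O/A. The conditions did not overlap on this scale, but they did as TMM-scaled CPM, at 116.7 to 126.0 in ethanol and 114.1 to 117.0 in O/A. The log2 fold change was -0.06 (95% confidence interval -0.13 to 0.0038, edgeR adjusted p = 0.107). Without TMM scaling the log2 fold change was -0.11 with an adjusted p of 0.00446 (edgeR), so a small fall of PRKAA1 depended on the scaling, and no setting took it past the threshold.

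PRKAA2, the gene of alpha 2 on the plus strand of chromosome 1 (56645314 to 56715335), had 1 count in 4 libraries and 0 in the other 4. These were 3 counts over the ethanol libraries and 1 over the O/A libraries, and no fold change is given. A level of 3 counts would be 0.0153 to 0.0186 FPKM in these libraries. The FPKM of PRKAA1 was at least 945-fold higher than that level in every library, counting error only. A change in PRKAA2 was not detectable at this depth.

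The beta subunits were both present. PRKAB2 (beta 2), on the minus strand of chromosome 1 (147155106 to 147172550), had 13.9, 13.5, 13.07 and 12.97 FPKM in ethanol and 13.8, 16.1, 15.1 and 15.3 FPKM in O/A. O/A replicate 1 was the only O/A library within the ethanol range on this scale. The log2 fold change of 0.22 (SE 0.0399, 95% confidence interval 0.14 to 0.30, edgeR adjusted p = 6.53e-06) did not reach the threshold of 0.25. Without O/A replicate 1 it was 0.27 (edgeR adjusted p = 1.68e-07) and reached it.

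PRKAB1 (beta 1), on the plus strand of chromosome 12 (119667864 to 119681624), had 7.61, 7.66, 6.66 and 6.55 FPKM in ethanol and 8.71, 6.80, 7.57 and 7.39 FPKM in O/A. Here O/A replicate 1 was the highest library and the conditions overlapped. The log2 fold change was 0.14 (95% confidence interval -0.03 to 0.32, edgeR adjusted p = 0.151). The log2 count ratio of PRKAB2 over PRKAB1 was 0.77 ± 0.0800 in ethanol and 0.84 ± 0.243 in O/A (SD, n = 4), a difference smaller than the spread in O/A (two-sided exact permutation test, p = 0.543, also after adjustment). PRKAB2 gave 65.3% ± 1.27 of the summed beta FPKM in ethanol and 66.4% ± 3.79 in O/A (SD, n = 4).

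STK11 encodes LKB1 and lies on the plus strand of chromosome 19 (1177558 to 1228431). The ethanol libraries had 4.96, 5.03, 5.23 and 5.00 FPKM and the O/A libraries had 4.43, 4.43, 4.24 and 3.87 FPKM. All O/A libraries lay below all ethanol libraries. The log2 fold change was -0.21 (SE 0.0476, 95% confidence interval -0.30 to -0.11, edgeR adjusted p = 2.26e-04), within the threshold. Without TMM scaling it was -0.25, just past the threshold.

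How the levels of these genes compare depends on the length used for each gene. The deposited table divides by all exonic bases of a gene, which for PRKAG2 is 16427 bases against 3279 in its canonical transcript (GENCODE v44), for STK11 8811 against 3293, and for SESN2 3462 in both. With the canonical length, a choice made after the data had been seen, PRKAG2 in ethanol was 20.8 ± 0.289 FPKM instead of 4.15 ± 0.0572, and PRKAB1 was 19.4 ± 1.62 instead of 7.12 ± 0.597 (SD, n = 4). The summed gamma level, which was below the summed alpha and beta levels with the deposited length, at 5.95 against 18.7 and 20.5 FPKM in ethanol, was then close to the alpha level, at 25.3 against 23.3 FPKM in ethanol and, in the other order, 20.7 against 21.6 FPKM in O/A. With either length the gamma sum may be too low, since PRKAG1 shares most of its canonical transcript with another gene. PRKAB1 was below PRKAB2 with the deposited length and above it with the canonical length. DDIT4 was the highest gene and PRKAA2 the lowest in both conditions with either length, and SESN2 was the second highest in O/A.

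**Figure D3:**
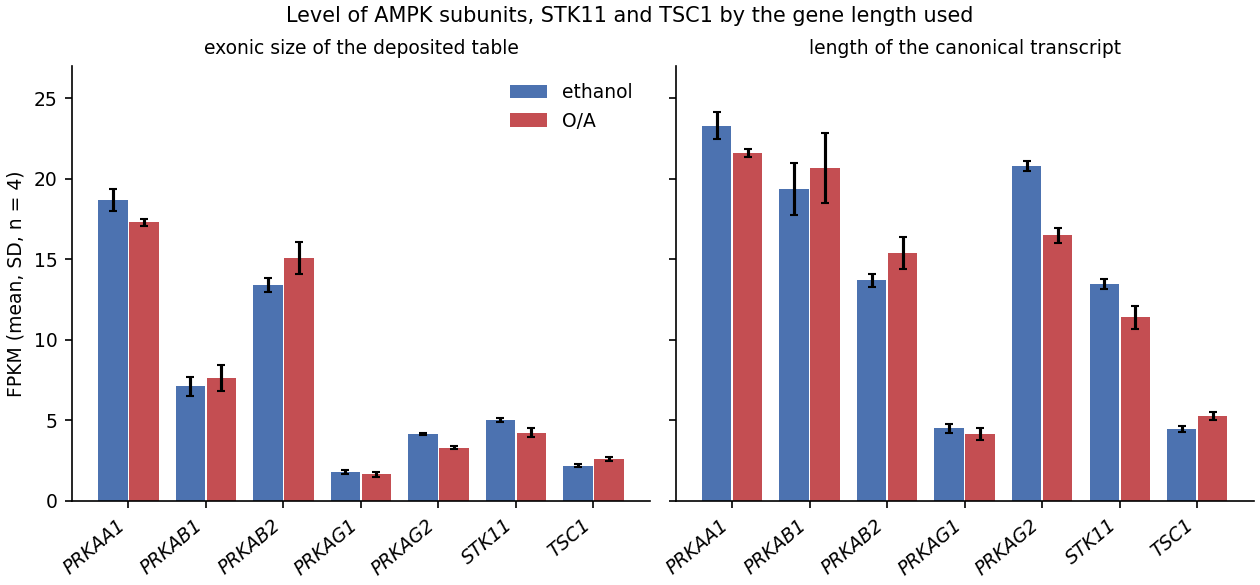
Mean FPKM with SD (n = 4 libraries) of the AMPK subunits with counts, STK11 and TSC1 in ethanol (blue) and O/A (red), with the exonic size of the deposited table (left) and the length of the canonical transcript (right). PRKAG2 in ethanol moves from 4.15 to 20.8 FPKM, whereas PRKAB2 stays near 13.4 to 13.7 FPKM.

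Genes that act beside these 10 were read from lists. Of 7 tested AMPK kinases and their partners, 1 was called higher, MAP3K7 (TAK1) with a log2 fold change of 0.35 (edgeR adjusted p = 9.40e-12), and 1 lower, CAMKK1 with -1.04 on only 9 to 39 counts per library. CAMKK2, a calcium-dependent kinase of AMPK, had -0.07 (edgeR adjusted p = 0.127). CAB39 (MO25), which holds LKB1 in its active form, had -0.20 (edgeR adjusted p = 1.44e-08), within the threshold. The median of this list was -0.07, and its counts lay near the 15.8% and 18.9% of all genes called higher and lower.

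Other kinases that LKB1 switches on, the SIK, NUAK, MARK, BRSK and SNRK kinases, were mostly lower. Of 11 tested, 6 were called lower and 1 higher, with a median log2 fold change of -0.28, against 18.9% and 15.8% of all genes. SIK1 had the lowest value, -1.19 (SE 0.141, edgeR adjusted p = 3.54e-10), and a near-identical copy of SIK1 in the genome makes its counts uncertain. NUAK1 fell by 0.95 on the log2 scale, from 6.89 ± 0.435 to 3.46 ± 0.0898 FPKM (SD, n = 4). MARK3 was the one called higher, at 0.49.

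Among 9 genes of AMPK substrates, 3 were called higher and 1 lower, with a median of 0.15, against 15.8% and 18.9% of all genes, so few genes set the list apart from that share. ULK1, the kinase that starts autophagy, rose from 3.48 ± 0.385 to 7.36 ± 0.365 FPKM (SD, n = 4), a log2 fold change of 1.12 (edgeR adjusted p = 1.94e-16). FNIP1 (0.36) and PFKFB2 (0.38) were the others called higher, and TBC1D4 (-0.59) was called lower. ACACA, the acetyl-CoA carboxylase gene, had 0.01 (95% confidence interval -0.05 to 0.08, adjusted p = 0.767).

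Of 10 other inhibitors of mTORC1, 7 were tested, which is few to set beside the 15.8% and 18.9% of all genes, and 2 were called higher (SESN3 and TBC1D7) and 3 lower, SESN1, CASTOR2 (-0.33), a relative and partner of the arginine sensor CASTOR1, and SAMTOR (-0.38), a sensor of S-adenosylmethionine. DEPTOR and CASTOR1 had too few counts, at most 4 and 8 per library. In GATOR1 and KICSTOR, which hold mTORC1 back when amino acids are low, KICS2 was called lower, with -1.03 (edgeR adjusted p = 6.43e-12). None of the 5 GATOR2 genes, whose products SESN2 binds, was called in edgeR's test or in DESeq2; they lay between -0.20 for WDR24 and 0.14 for SEC13, and at an adjusted p of at most 0.05 alone 1 was higher and 1 lower. In mTORC1 itself RPTOR was called lower, with -0.59 (SE 0.0532, edgeR adjusted p = 1.30e-13). MTOR had -0.04 (edgeR adjusted p = 0.372), MLST8 -0.16 (edgeR adjusted p = 0.038) and RHEB 0.16 (edgeR adjusted p = 7.69e-05), none of them past the threshold. The conditions did not overlap, as TMM-scaled CPM, for MLST8 and RHEB.

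**Figure D4:**
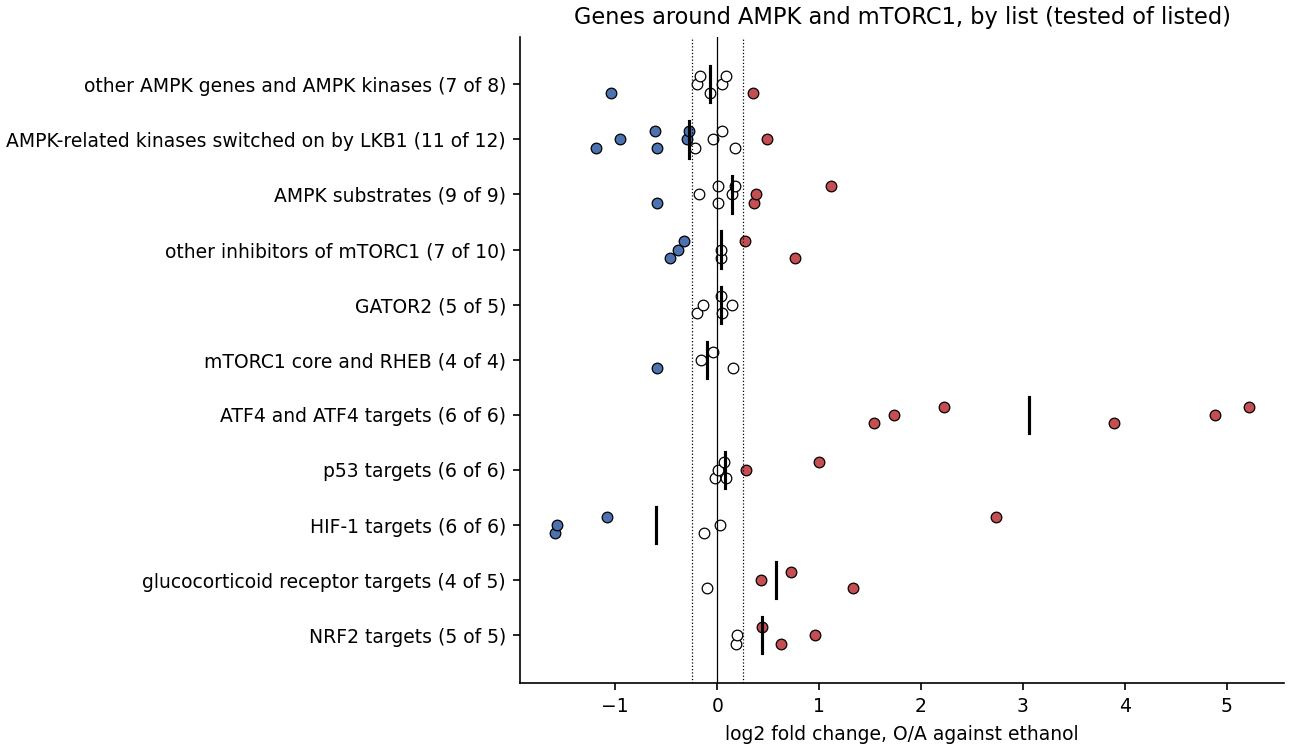
log2 fold change of O/A against ethanol for every tested gene of the lists around the 10 members, GATOR1 and KICSTOR not drawn; red points were called higher, blue points lower and white points neither, thick lines are list medians and dotted lines mark -0.25 and 0.25. The lists around AMPK and mTORC1 have genes on either side of 0. Their medians run from -0.28, for the kinases that LKB1 switches on, to 0.15. The list of ATF4 and its targets lies apart, with a median of 3.06.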

How the data were processed

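Paired-end reads of poly(A)-selected RNA were aligned by the authors to GRCh38.p13 with HISAT2 (2.0.1) and counted on Ensembl genes with HTSeq (0.6.1). Whether the counting used strand is not given in the sources used here. The deposited counts are raw. The deposited FPKM values differed by at most 0.005 from the count divided by the exonic size and the library total. A second deposited table holds the authors' own DESeq2 comparison and was not used. The 4 hours of treatment come from the study's text, and the doses are not in the sample labels. Condition and replicate came from the sample titles.

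Here the 14893 genes reaching 10 counts in 4 or more libraries were fitted with edgeR 4.0.16 in R 4.3.3 (TMM scaling, robust quasi-likelihood test, Benjamini-Hochberg adjustment over all of them). Ratios of paralogs were log2 of (count + 0.5), compared by exact permutation; PRKAA2 over PRKAA1 was planned and left out for lack of counts, so 3 ratios were adjusted together. Standard errors and 95% confidence intervals of the edgeR log2 fold changes were computed from its F statistic and a t quantile. DESeq2 1.42.0 and limma 3.58.1 served as alternatives. The genes and lists were chosen with earlier results of these data known. Named were all 10 members, their paralogs and partners, and the extreme genes of each list; other genes were named after their values were seen. Of 109 listed genes 108 were found by symbol and SAMTOR by a RefSeq synonym. The scripts were tested on simulated data. Alternatives were other scalings, filters, thresholds and tools, a replicate block, and leaving out each library. The canonical transcript length and the motifs CCAAT and ACGTG were added after seeing the data. Libraries of 1 condition differed by more than sampling noise (chi-square per degree of freedom 1.76 to 5.71). One result of the GATOR1 and KICSTOR list is not reported here.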

Additional observations from a re-analysis of the deposited data

How the results depend on the processing

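SESN2 was called in all 18 alternatives, with a log2 fold change of 2.27 to 2.47. DDIT4 (0.46 to 0.52) and PRKAG2 (-0.33 to -0.26) were called in 17, the exception being an absolute log2 fold change above 1. TSC1 (0.17 to 0.32) was called in 14, and not with total counts alone, on either FPKM scale or above 1. No tested member changed direction. The number of members called lower was 2 with total counts alone and without a fold change threshold. Above an absolute log2 fold change of 1, 1 member was higher and 0 lower, against 382 and 415 of all genes. Without a threshold 3868 of all genes were higher. On log2(FPKM + 1) 1514 were, and the cause was not tested. The log2 ratio of PRKAB2 over PRKAB1 lay between -0.0095 (without O/A replicate 2) and 0.185 (without O/A replicate 1) when libraries were left out. Ratios with 3 libraries against 4 cannot go below a p of 0.0571. Libraries with the same replicate number did not deviate together, with correlations of 0.0389, -0.00212, -0.0226 and 0.0675. With the replicate block 2354 genes were higher and 2806 lower, and the block changed no call of a member. Genes with few counts, above all PRKAA2, are limited by depth.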

Other observations

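Apart from PRKAG1, no member shared exonic bases with another gene on its own strand. Where the counting ignored strand, the shared part of the canonical transcript was 4.40% for STK11, with CBARP on the opposite strand, 2.26% for PRKAG2 and 0.616% for TSC1. CBARP held 266 counts over the ethanol libraries and 266 over the O/A libraries, against 3302 and 2749 for STK11.

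The nutrient sensors of mTORC1 and their relatives differed widely in level in these keratinocytes. In ethanol SESN2 had 10.2 ± 0.650, SAMTOR 5.285 ± 0.350 and CASTOR2 0.815 ± 0.0238 FPKM (SD, n = 4). In O/A SESN2 had 53.1 ± 1.78, SAMTOR 3.92 ± 0.380 and CASTOR2 0.625 ± 0.0370 FPKM (SD, n = 4). CASTOR1 had at most 0.0850 FPKM as a mean of either condition. These are deposited FPKM, which depend on the length used for each gene. SESN2 and SESN3 rose, and SESN1, SAMTOR and CASTOR2 fell, so sestrins were found on both sides.

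No library lay far from the other 3 of its condition in 24 groups looked at by Dixon's gap test, where chance gives about 1.2.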
